A study of Mus musculus with 32 samples.

Results

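Lungs of mice that were given World Trade Center dust and treated with dexamethasone were compared with lungs of unexposed, untreated mice. The comparison covered 2749 annotated genes, of 26305 with an Ensembl identifier and 54640 features in all. The genes are those whose mean over the 16 mice of the study was at least 0.1 FPKM (fragments divided by transcript length and by library depth). All mice were wild-type male C57BL/6J animals aged 6 to 8 weeks. The 4 treated mice received the dust, called WTCPM in the labels, by instillation into the nose and dexamethasone by injection into the peritoneum at 0.1 mg/kg. The 4 control mice are labelled healthy and received neither. A group of 4 mice with dust and no drug and another with dust and rosoxacin entered the model fit and the filter with them, and of these only the levels of the dust-only mice are quoted. The dust dose, the interval before the lungs were taken and any vehicle given to the control mice are not stated in the material at hand. The comparison therefore covers the dust and the drug together, and the effects of the 2 cannot be told apart in it.

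Dexamethasone is a synthetic glucocorticoid. It binds the glucocorticoid receptor, which then acts on DNA at pairs of a short recognition sequence and through other transcription factors, and it lowers the transcription of many cytokines and chemokines. Glucocorticoids are also known to release neutrophils from the bone marrow, to prolong their survival and to kill developing lymphocytes. Inhaled dust draws neutrophils and monocytes into the lung through chemokines made by macrophages and epithelium, and the liver and lung answer with acute phase proteins.

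The annotated genes tested were weakly expressed. Their median level was 0.218 FPKM and the highest mean was 4.05 FPKM. Annotated genes held 0.114% of the summed FPKM, and the remainder lay in loci assembled by the authors that carry no gene name. None of the 8 genes that would check the tissue by name, among them the surfactant genes Sftpb and Sftpc and the club cell gene Scgb1a1, had an identifier of its own, so lung identity could not be checked from its markers. For genes with 1 transcript, FPKM multiplied by length fell on repeated steps, and if 1 step is 1 fragment the mice had 17500000 to 27900000 fragments over both lanes. That reading of the step was inferred from the definition of FPKM and was not checked against read counts. The total FPKM was 803300 ± 44351 in dexamethasone and 836630 ± 178140 in control mice (SD, n = 4 each, exact permutation test, two-sided p = 0.886). Control mouse 1 stood apart, with the highest total of the 8 mice (1099600), and it also had the highest summed immunoglobulin segments, described below. The results are of whole lungs, in which fewer cells of a type and less RNA per cell cannot be told apart.

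One annotated gene, Asprv1, passed the test, and it rose. At an adjusted p under 0.05 (limma, Benjamini-Hochberg adjustment over 2749 genes) this was 0.0364% of the genes tested. At an unadjusted p under 0.05 there were 137 genes, 79 with a higher and 58 with a lower mean in dexamethasone mice, which was 4.98% of those tested. The 4 dexamethasone mice lay above all 4 controls for 37 genes (1.35%) and below all 4 for 29 genes (1.05%). The median log2 difference of all genes tested was 0.02. In a separate fit over 17355 loci and genes of at least 1 FPKM, 2 loci passed, 1 higher and 1 lower (0.0115%), and neither has a gene name.

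**Figure D1:**
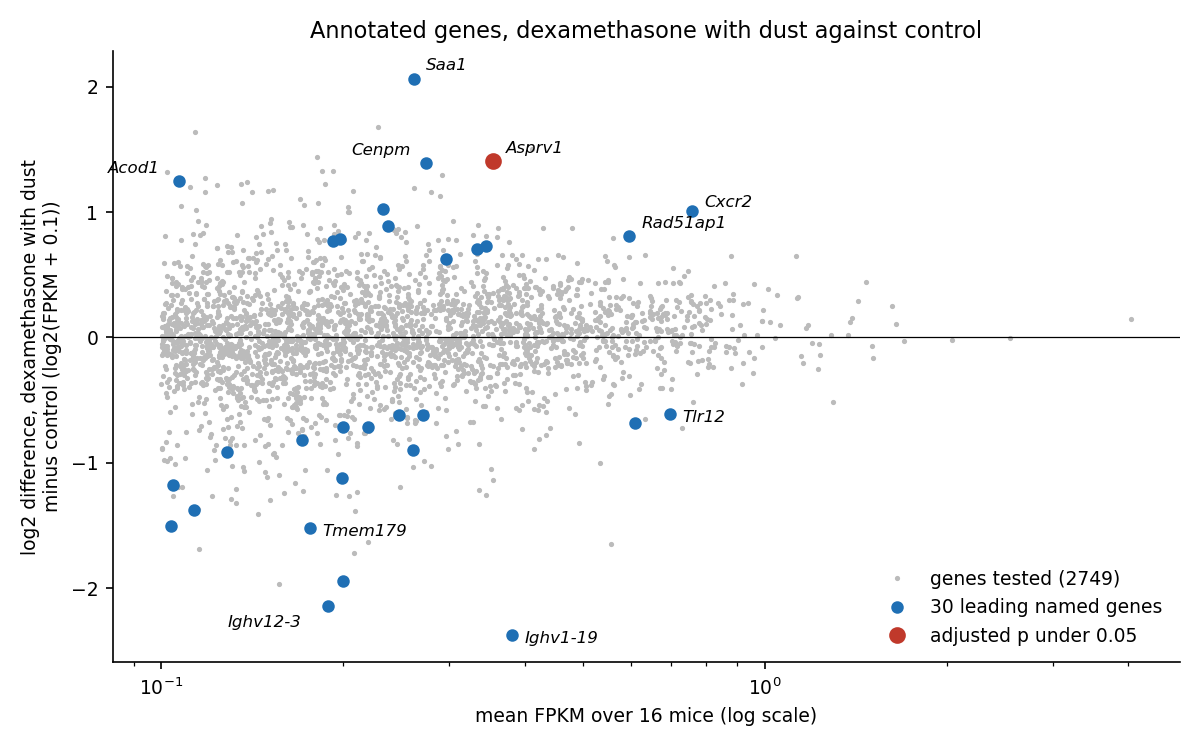
The log2 difference between dexamethasone and control mice, on log2(FPKM + 0.1), is plotted against the mean FPKM over 16 mice for 2749 annotated genes. The red point is Asprv1, which passed the test, and the blue points are the other named genes with the smallest unadjusted p, of which Saa1 lies highest at 2.07 and Ighv1-19 lowest at -2.37.

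By kind of gene, protein-coding genes made up 870 of those tested, with a median log2 difference of 0.01, and 24 of them (2.76%) had all dexamethasone mice above all controls. For the 1035 pseudogenes the corresponding number was 7 (0.676%) and for the 78 segments of antigen receptors it was 0. In the opposite direction, 15 protein-coding genes (1.72%), 4 pseudogenes (0.386%) and 4 antigen receptor segments (5.13%) had all dexamethasone mice below all controls. Predicted genes without a proper name numbered 1783, of which 63 (3.53%) had an unadjusted p under 0.05, against 4.98% of all genes tested. At the edge of the filter, the 3 genes just inside had a mean of 0.100 FPKM and the 3 just outside 0.0999 FPKM. One of the latter was Ltb4r2, a leukotriene B4 receptor, at 0.100 FPKM in control and 0.0998 FPKM in dexamethasone mice.

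Asprv1 encodes a retrovirus-like aspartic protease that processes filaggrin in skin and is also transcribed in neutrophils. It lies at chr6:86628164-86629710 on mm10, with a transcript of 1547 bases. Its level was 0.179, 0.128, 0.207 and 0.201 FPKM in the 4 control mice and 0.735, 0.741, 0.637 and 0.462 FPKM in the 4 dexamethasone mice. The groups did not overlap, and every treated mouse lay well above the highest control. The mean was 0.644 ± 0.131 FPKM against 0.179 ± 0.0362 FPKM (SD, n = 4 each), a ratio of 3.60. On the log2(FPKM + 0.1) scale the difference was 1.41 (SE 0.23, 95% interval 0.93 to 1.88, limma adjusted p = 0.0247). The dust-only mice had 0.285, 0.325, 0.241 and 0.241 FPKM, which lay between the other groups. In steps, taken over both lanes, Asprv1 stood at 6.5, 5.3, 8.9 and 6.0 in control and 29.1, 20.1, 26.4 and 13.7 in dexamethasone mice, so the call rests on few fragments.

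Cxcr2 and Cxcr1, neighbouring genes on chromosome 1 for the receptors through which neutrophils follow CXC chemokines, were the only other neutrophil markers above the filter. Cxcr2 measured 0.668, 0.366, 0.273 and 0.818 FPKM in control and 1.609, 0.9414, 1.121 and 0.8288 FPKM in dexamethasone mice. The groups did not overlap, although dexamethasone mouse 4 lay barely above control mouse 4. The log2 difference of Cxcr2 was 1.01 (SE 0.30, limma adjusted p = 0.737), so it did not pass. Cxcr1 measured 0.323, 0.320, 0.340 and 0.249 FPKM in control and 0.648, 0.440, 0.668 and 0.288 FPKM in dexamethasone mice, with dexamethasone mouse 4 inside the control range and a log2 difference of 0.54 (SE 0.30, limma adjusted p = 0.997). In dust-only mice the means were 0.516 ± 0.107 FPKM for Cxcr2 and 0.447 ± 0.209 FPKM for Cxcr1 (SD, n = 4 each).

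Of 35 neutrophil markers, 15 had an identifier of their own and 3 were tested. All 3 had higher means, with a median log2 difference of 1.01, against 0.02 for all genes tested. The 1 that passed was Asprv1, the only call among all genes tested (0.0364%). Their summed level, which includes Asprv1, was 1.58 to 2.99 FPKM in dexamethasone mice and 0.814 to 1.27 FPKM in controls, with no overlap. The list was chosen with earlier results of these data known, so these summaries are not separate from that call. The other 12 were under the filter, and 5 of them, including Mpo for myeloperoxidase, were listed at 0 in all 8 mice. Ly6g, the antigen used to sort mouse neutrophils, was listed at 0.0553 FPKM in 1 control mouse and at 0.0416 and 0.134 FPKM in 2 dexamethasone mice. Of the 12, 6 were above 0 in at least 1 control and 5 in at least 1 dexamethasone mouse. Elane (0.0434 FPKM in control mouse 1) and Ctsg (0.0350 FPKM in control mouse 3) were above 0 in controls only. Stfa2l1 was above 0 in dexamethasone mouse 2 only, at 0.391 FPKM.

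The stretches before the transcription start of the 3 neutrophil markers and of Saa1 are shown because the drug acts through a receptor with a known recognition sequence. They hold 250 bases each, 5′ to 3′ along the gene's strand, from RefSeq on GRCm38.p6. Capitals mark AGAACA, or its reverse complement TGTTCT, where it occurs. This motif is a single copy of the short sequence that the receptor binds in pairs, not the full pair.
Asprv1, chr6:86627924-86628173, plus strand: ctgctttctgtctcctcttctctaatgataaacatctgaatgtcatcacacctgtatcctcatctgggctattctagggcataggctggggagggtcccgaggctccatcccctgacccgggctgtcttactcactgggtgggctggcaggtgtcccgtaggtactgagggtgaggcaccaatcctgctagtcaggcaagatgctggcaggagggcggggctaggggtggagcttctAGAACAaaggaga
Cxcr2, chr1:74153744-74153993, plus strand: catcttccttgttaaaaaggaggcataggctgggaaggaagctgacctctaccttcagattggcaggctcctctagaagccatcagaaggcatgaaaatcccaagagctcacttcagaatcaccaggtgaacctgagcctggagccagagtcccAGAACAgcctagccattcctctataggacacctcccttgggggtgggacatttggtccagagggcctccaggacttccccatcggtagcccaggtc
Cxcr1, chr1:74194632-74194881, minus strand: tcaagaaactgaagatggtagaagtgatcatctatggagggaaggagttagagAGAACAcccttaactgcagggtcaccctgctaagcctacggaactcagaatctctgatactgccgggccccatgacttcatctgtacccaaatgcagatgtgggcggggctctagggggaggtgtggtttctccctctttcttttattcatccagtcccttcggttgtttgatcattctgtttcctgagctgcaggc
Saa1, chr7:46742981-46743230, minus strand: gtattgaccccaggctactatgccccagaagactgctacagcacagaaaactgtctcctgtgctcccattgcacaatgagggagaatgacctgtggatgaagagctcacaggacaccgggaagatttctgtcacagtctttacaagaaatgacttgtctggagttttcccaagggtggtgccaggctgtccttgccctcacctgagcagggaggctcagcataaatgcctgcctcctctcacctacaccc

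The motif AGAACA, or TGTTCT, was searched in 300 bases around each start (250 before and 50 after). It began 13 bases before the start of Asprv1, 96 before that of Cxcr2 and 197 before that of Cxcr1, and it was not in the Saa1 window. Of 32851 promoters in the table, 18.97% held it on either strand. Of the 30 genes with the smallest p named here, 21 had a promoter in the table and 5 of these (23.8%) held it. The motif followed by its reverse complement after a gap of 3 bases was in 3 of all promoters and in none of these 21. A match in these letters is a description of the window only.

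Saa1, a serum amyloid A protein of the acute phase response, had the largest positive log2 difference among the named genes but missed the threshold. It measured 0.0202, 0.00377, 0.0367 and 0.0208 FPKM in control mice and 0.927, 0.265, 0.745 and 0.100 FPKM in dexamethasone mice. All treated mice lay above all controls, and they spread over a wide range. The log2 difference was 2.07 (SE 0.39, limma adjusted p = 0.0734). Without dexamethasone mouse 4 it was 2.51 (limma adjusted p = 0.00158). The dust-only mice had 0.318, 0.240, 0.200 and 0.386 FPKM. With a control mean of 0.0204 FPKM, Saa1 met the filter through the other groups, which favours a higher mean. Saa1 has a near-identical neighbour, Saa2, and how the authors' counting divided reads between them is not given, so its level is uncertain. Socs1, an inhibitor of cytokine signalling and the other measured member of the acute phase and NF-kB list, had 0.461 ± 0.140 FPKM in dexamethasone and 0.702 ± 0.320 FPKM in control mice.

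Acod1 and Mefv, genes of activated myeloid cells, had higher means with overlapping groups. Acod1, the enzyme that makes itaconate, was listed at 0 in 3 controls and at 0.0489 FPKM in control mouse 1, against 0.299, 0.240, 0.192 and 0.0198 FPKM in dexamethasone mice (log2 difference 1.25, SE 0.45, limma adjusted p = 0.865). With a control mean of 0.0122 FPKM, Acod1 met the filter through the other groups, which favours a higher mean. Mefv encodes pyrin, an inflammasome sensor of granulocytes and monocytes, and measured 0.309, 0.169, 0.219 and 0.151 FPKM in control and 0.557, 0.481, 0.392 and 0.253 FPKM in dexamethasone mice (log2 difference 0.73, SE 0.27, limma adjusted p = 0.882). Dexamethasone mouse 4 was the lowest of its group for Asprv1, Cxcr2, Cxcr1, Saa1, Mefv and Acod1. Monocyte and macrophage markers could not be set beside them, since none of 36 had an identifier of its own.

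**Figure D2:**
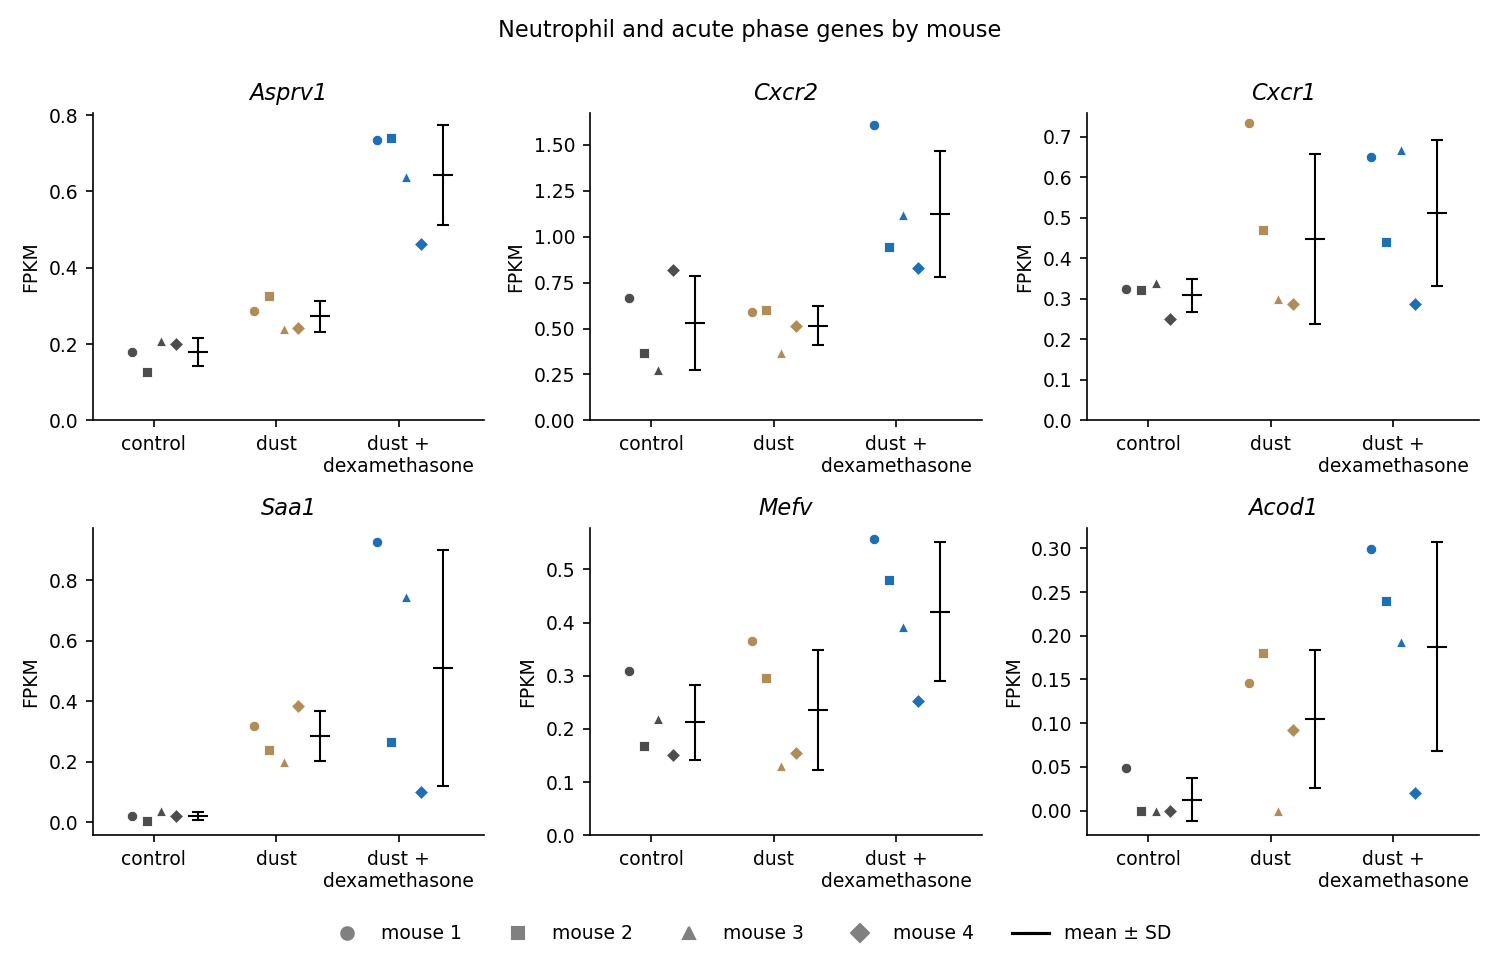
FPKM of Asprv1, Cxcr2, Cxcr1, Saa1, Mefv and Acod1 are shown for each mouse of the control, dust-only and dexamethasone groups, with the mean and SD of 4 mice beside the points. Asprv1, Cxcr2 and Saa1 show no overlap between control and dexamethasone mice, and dexamethasone mouse 4 is the lowest of its group in all 6 panels.

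Chemokine ligands had higher means in all 5 members tested, of 10 with an identifier and 38 listed, and none passed. Their median log2 difference was 0.58. Ccl4 and Cxcl5 had control means of 0.0724 and 0.0673 FPKM, under 0.1 FPKM, and met the filter through the other groups. Such entry favours higher means, so the count is not a test of the list. Ccl4, an attractant of monocytes and T cells, was listed at 0 in 3 controls and at 0.290 FPKM in control mouse 1, against 0.548, 0.130, 0.133 and 0.237 FPKM in dexamethasone mice. The neutrophil attractants Cxcl5, Cxcl2 and Cxcl1 had log2 differences of 0.76 (SE 0.40), 0.58 (SE 0.32) and 0.35 (SE 0.31), and for each of the 3 the groups overlapped. Cxcl2 had 0.316 FPKM in dexamethasone and 0.188 FPKM in control mice, and 0.534 FPKM in dust-only mice. The summed level of the 5 ligands was 1.38 to 1.61 FPKM in dexamethasone and 0.614 to 1.45 FPKM in control mice.

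Receptors for chemoattractants had 7 of 8 tested members at a higher mean and a median log2 difference of 0.19. Besides Cxcr2 and Cxcr1, C3ar1, the receptor of complement fragment C3a, had 1.02 FPKM against 0.866 FPKM. The groups overlapped, with a log2 difference of 0.22 (SE 0.15), and it did not pass. Xcr1, which marks cross-presenting dendritic cells, had 0.4997 FPKM against 0.405 FPKM. Pacsin1, listed with it as a dendritic cell marker, had 0.166 FPKM against 0.209 FPKM, and the median log2 difference of these 2 was 0.005.

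Cytokines were split evenly, with 4 of 8 tested members higher and 4 lower and a median log2 difference of -0.05, and none passed. Tnfsf14, a cytokine of the tumour necrosis factor family known as LIGHT, measured 0.485, 0.401, 0.374 and 0.373 FPKM in control and 0.789, 0.640, 0.875 and 0.431 FPKM in dexamethasone mice (log2 difference 0.59, SE 0.25, limma adjusted p = 0.882). Only dexamethasone mouse 4 fell within the control range. Il2, the T cell growth factor, had 0.139 FPKM against 0.261 FPKM, with zeros in both groups. Fasl, the ligand of the death receptor Fas, had 0.515 FPKM against 0.476 FPKM.

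Among 5 interleukin receptors tested, 4 had higher means. Il12rb1, a subunit shared by the interleukin 12 and 23 receptors, had 0.218 FPKM in dexamethasone and 0.0794 FPKM in control mice, and Il23r, the second subunit of the interleukin 23 receptor, had 0.130 FPKM against 0.0348 FPKM with no overlap. Their log2 differences of 0.90 (SE 0.38) and 0.81 (SE 0.37) did not pass (limma adjusted p = 0.882 and 0.953). Both genes had control means under 0.1 FPKM and met the filter through the other groups. Such entry favours higher means, so the count of 4 is not a test of the list. Il20rb and Il22ra1, epithelial receptor chains, both had a log2 difference of 0.10. Of 7 pattern recognition genes, 3 had higher and 4 lower means. Tlr12, a receptor for parasite profilin, measured 0.999, 1.01, 1.13 and 0.746 FPKM in control and 0.833, 0.677, 0.622 and 0.349 FPKM in dexamethasone mice, with overlapping groups (log2 difference -0.61, SE 0.22, limma adjusted p = 0.863). Tlr11, which also recognises profilin, had 0.232 FPKM against 0.317 FPKM, and Tlr9, the sensor of bacterial DNA, 0.623 FPKM against 0.731 FPKM. The 1 interferon-stimulated gene tested, Apol9a, had 0.474 FPKM against 0.522 FPKM.

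Cell division genes had higher means in 6 of 7 tested members, with a median log2 difference of 0.63, and 4 had an unadjusted p under 0.05, as did 4.98% of all genes tested, while none passed the adjusted threshold. Cenpm, a centromere protein, was listed at 0.283, 0.0308, 0 and 0 FPKM in control and at 0.414, 0.278, 0.228 and 0.274 FPKM in dexamethasone mice (log2 difference 1.39, SE 0.38, limma adjusted p = 0.737). Control mouse 1 alone brought the groups to overlap, and without it Cenpm had a log2 difference of 1.845 (limma adjusted p = 0.0258). No other setting called Cenpm, and with another mouse left out its limma adjusted p reached 0.947. Kif14, a mitotic kinesin, measured 0.100, 0.0754, 0.144 and 0.135 FPKM in control and 0.321, 0.295, 0.204 and 0.251 FPKM in dexamethasone mice, with no overlap. Prr11, a gene of late cell cycle, had 0.157, 0.0892, 0.256 and 0.202 FPKM against 0.307, 0.355, 0.300 and 0.304 FPKM, again with no overlap. Sapcd2, which orients the mitotic spindle, had 0.381 FPKM against 0.232 FPKM. The mitotic kinase Ttk and the spindle protein Troap had log2 differences of -0.07 (SE 0.39) and 0.02 (SE 0.36). The dust-only means were 0.287 FPKM for Cenpm, 0.228 FPKM for Kif14 and 0.414 FPKM for Prr11. The summed level of the 7 genes was 1.67 to 2.00 FPKM in dexamethasone, 1.74 to 2.36 FPKM in dust-only and 0.716 to 1.19 FPKM in control mice. Cenpm had a control mean of 0.0785 FPKM and met the filter through the other groups, which favours a higher mean. The list was chosen with earlier results of these data known, so its counts and sums are not a test of it.

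DNA repair genes had higher means in all 3 tested members, with a median log2 difference of 0.40 and none past the threshold. Rad51ap1, a protein of homologous recombination, measured 0.421, 0.225, 0.316 and 0.408 FPKM in control and 0.547, 1.08, 0.696 and 0.458 FPKM in dexamethasone mice. The groups did not overlap (log2 difference 0.81, SE 0.25, limma adjusted p = 0.737). Ercc6l, a helicase of mitotic chromosomes, had 0.474 FPKM against 0.333 FPKM, also without overlap. Polq, a polymerase of DNA end joining and the third tested member, had 0.416 FPKM against 0.295 FPKM with overlapping groups (log2 difference 0.39, SE 0.29). Outside that list, Dscc1, which helps to tie sister chromatids together, measured 0.0969, 0.190, 0.101 and 0.0567 FPKM in control and 0.242, 0.270, 0.314 and 0.305 FPKM in dexamethasone mice (log2 difference 0.89, SE 0.27, limma adjusted p = 0.737). Ankle1, a nuclease of blood-forming tissue and also not on the list, had 0.373 FPKM against 0.192 FPKM with dexamethasone mouse 1 inside the control range. Kif14, Dscc1 and Rad51ap1 each overlap another annotated gene, and whether the counting used strand is not given.

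No lymphocyte gene passed. Klrg1, a receptor of effector T and natural killer cells, measured 0.135, 0.0915, 0.0763 and 0.128 FPKM in control and 0.274, 0.523, 0.313 and 0.199 FPKM in dexamethasone mice, with no overlap (log2 difference 1.00, SE 0.41, limma adjusted p = 0.882). The T and natural killer cell list had 4 of 6 tested members higher and a median of 0.08, and without control mouse 1 it had 2 higher and 4 lower and a median of -0.02. Icos and Pdcd1, receptors of activated T cells, had log2 differences of 0.09 (SE 0.22) and 0.35 (SE 0.39). Of 3 B and plasma cell markers with an identifier none reached the filter.

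Immunoglobulin variable segments, the germline exons joined in B cells, had lower means in 44 of 55 tested members and higher in 11, with a median log2 difference of -0.59, and none passed. This direction depended on 1 animal. Summed over the 55 segments, the controls had 65.3, 9.24, 8.48 and 16.3 FPKM and the dexamethasone mice 11.1, 9.40, 9.52 and 14.5 FPKM. Control mouse 1 was the highest control for 49 of the 55. Without it the median was -0.02, with 27 higher and 28 lower. Ighv1-19 measured 2.16, 0.448, 0.526 and 0.805 FPKM in control and 0, 0.165, 0.269 and 0 FPKM in dexamethasone mice, with no overlap (log2 difference -2.37, SE 0.65, limma adjusted p = 0.737), and without control mouse 1 the difference was -1.94. Igkv4-59 (log2 difference -1.94, SE 0.56) was listed at 0.257 to 0.719 FPKM in controls and at 0 in 3 of 4 dexamethasone mice. Ighv12-3 (log2 difference -2.15, SE 0.67) was listed at 0 in all dexamethasone mice and in 1 control, and its control mean rested on 2.16 FPKM in control mouse 1, without which the difference was -1.36. These segments resemble each other closely, so reads may have been divided among copies.

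T cell receptor variable segments had lower means in 13 of 17 tested members, with a median log2 difference of -0.41, which was -0.18 without control mouse 1. Their summed level was 9.30, 5.12, 3.34 and 5.86 FPKM in control and 3.44, 4.28, 3.69 and 4.74 FPKM in dexamethasone mice, and the groups overlapped. Trdv2-2, a segment of gamma-delta T cells, had 0.101 FPKM against 0.352 FPKM, and Trbv12-2 had 0.122 FPKM against 0.491 FPKM with no overlap. Their log2 differences were -1.38 (SE 0.44, limma adjusted p = 0.737) and -1.63 (SE 0.68, limma adjusted p = 0.882). In dust-only mice Trdv2-2 was listed at 0 in all 4.

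Adipocyte genes had lower means in all 3 tested members, of 8 with an identifier and 47 listed, with a median log2 difference of -0.75 and none past the threshold. Lep, the hormone leptin, measured 0.978, 0.105, 0.289 and 0.381 FPKM in control and 0.196, 0.0658, 0.173 and 0.0639 FPKM in dexamethasone mice (log2 difference -1.06, SE 0.42, limma adjusted p = 0.882). Hcar1, the lactate receptor of fat cells, measured 0.917, 0.262, 0.410 and 0.197 FPKM against 0.293, 0.165, 0.140 and 0.181 FPKM. Control mouse 1 was the highest of the 8 mice for both genes, and without it the differences were -0.64 for Lep and -0.39 for Hcar1. The summed level of Lep, Hcar1 and Dio2 was 0.605 to 2.04 FPKM in control, 0.373 to 0.601 FPKM in dexamethasone and 0.146 to 0.306 FPKM in dust-only mice. The part of adhering fat in these lower values was not tested.

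**Figure D3:**
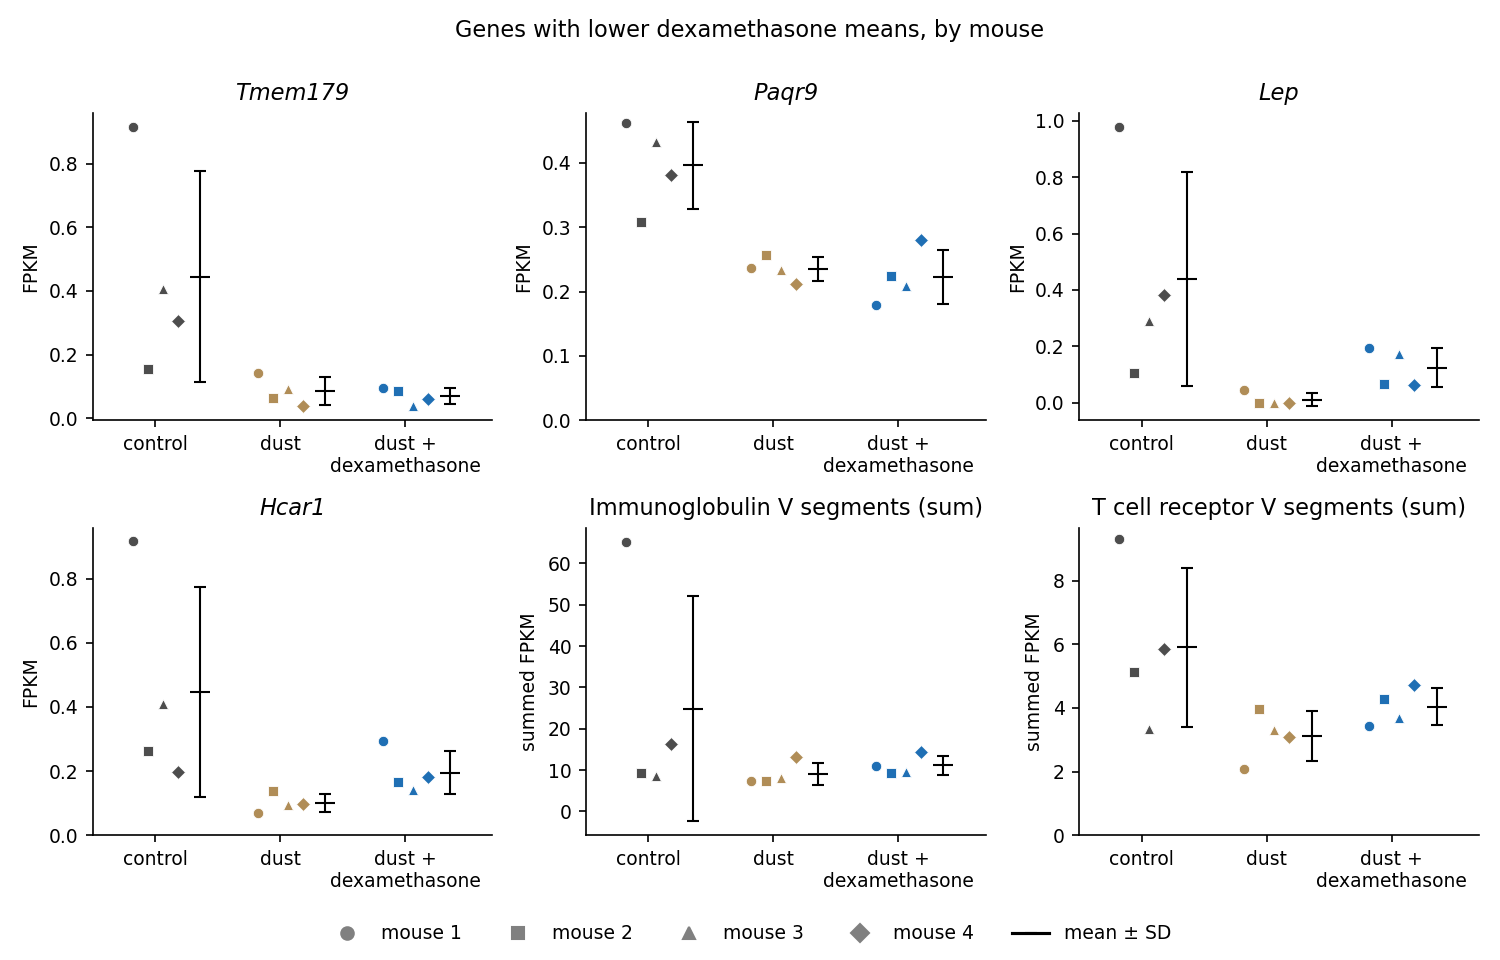
FPKM of Tmem179, Paqr9, Lep and Hcar1 and the summed FPKM of 55 immunoglobulin and 17 T cell receptor variable segments are shown for each mouse of the control, dust-only and dexamethasone groups, with the mean and SD of 4 mice. Control mouse 1 is the highest of the control and dexamethasone mice in every panel, at 65.3 summed FPKM for immunoglobulin segments.

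Other genes with lower means and the smallest p included several with no overlap between groups. Tmem179, a transmembrane protein gene, measured 0.916, 0.154, 0.405 and 0.304 FPKM in control and 0.0937, 0.0839, 0.0373 and 0.0600 FPKM in dexamethasone mice (log2 difference -1.52, SE 0.37, limma adjusted p = 0.550). Control mouse 1 was again the highest, and without it the difference was -1.16. Marc1, a mitochondrial reductase gene, had 0.655, 0.235, 0.207 and 0.0845 FPKM against 0.0719, 0, 0.0286 and 0 FPKM. Paqr9, of the progestin and adiponectin receptor family, measured 0.462, 0.308, 0.433 and 0.380 FPKM in control and 0.179, 0.225, 0.208 and 0.279 FPKM in dexamethasone mice. The Paqr9 controls were close together, and its difference was -0.62 (SE 0.20, limma adjusted p = 0.737). The dust-only mice had 0.084 FPKM for Tmem179, 0.0510 FPKM for Marc1 and 0.234 FPKM for Paqr9.

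Shd, an adaptor protein gene, had 0.162, 0.250, 0.454 and 0.198 FPKM in control and 0.146, 0.0521, 0.0821 and 0 FPKM in dexamethasone mice, while dust-only mice had 0.276 FPKM. Slc1a7, a glutamate transporter, had 0.110 FPKM in dexamethasone and 0.235 FPKM in control mice, and Tdrd5, a gene of germ cell RNA silencing, 0.134 FPKM against 0.261 FPKM. For Shd, Slc1a7 and Tdrd5 the groups did not overlap, and none passed. For 6 further genes with lower means the groups overlapped. These were Adtrp, a regulator of tissue factor pathway inhibitor (0.0488 FPKM against 0.251 FPKM), Ebf2, a transcription factor of brown fat precursors (0.0727 FPKM against 0.230 FPKM), Sfrp5, a secreted Wnt inhibitor (0.108 FPKM against 0.264 FPKM), Sertad4 (0.398 FPKM against 0.673 FPKM), Lrrn2 (0.145 FPKM against 0.301 FPKM) and Fer1l6 (0.146 FPKM against 0.377 FPKM). Adamts20, a metalloproteinase of the extracellular matrix, and Txndc2, a thioredoxin of sperm, had higher means, at 0.387 FPKM against 0.137 FPKM and 0.241 FPKM against 0.109 FPKM. In all, 13 of the 30 genes with the smallest p had higher and 17 lower means, and 15 of them showed no overlap, which the choice by p favours.

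Genes known to respond to glucocorticoids were almost all outside the annotated set. Of 47 listed, 3 had an identifier and 2 were tested. Adora1, the adenosine A1 receptor, had 0.722 ± 0.131 FPKM in dexamethasone and 0.856 ± 0.294 FPKM in control mice, and Pla2g3, a secreted phospholipase, 0.103 ± 0.0942 FPKM against 0.160 ± 0.108 FPKM (SD, n = 4 each). The groups overlapped for both, and neither passed. Of 21 genes of the glucocorticoid receptor and steroid metabolism, 1 was tested. Pomc, the precursor of the pituitary hormone adrenocorticotropin, had 0.223 FPKM against 0.101 FPKM, with control mouse 1 at 0.353 FPKM and inside the treated range.

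Of the genes of the lung's own tissues, none passed. No alveolar type 1 or type 2 marker of 28 had an identifier. Of 7 airway secretory and mucosal genes, 5 had higher means (median log2 difference 0.32), including Spdef, the goblet cell transcription factor, at 0.594 FPKM against 0.493 FPKM. Itln1, a mucosal lectin, was listed at 0 in all controls and at 0.273 and 0.159 FPKM in 2 dexamethasone mice. It met the filter through the other groups, which favours a higher mean. Fut2 and Fut9, fucosyltransferases, had 0.460 FPKM against 0.641 FPKM and 0.0478 FPKM against 0.139 FPKM. Ciliated, basal and neuroendocrine markers were split 3 and 3 (median 0.11), with Mcidas and Ccno, which drive the making of cilia, at 0.362 FPKM against 0.181 FPKM and 0.695 FPKM against 0.548 FPKM, and Trp63, the basal cell factor, at 0.122 FPKM against 0.234 FPKM. The endothelial genes Apold1 and Prox1, the latter of lymphatic vessels, had log2 differences of 0.18 (SE 0.18) and 0.22 (SE 0.26).

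Extracellular matrix genes had lower means in 7 of 10 tested members, with a median of -0.21. Col6a6, a collagen VI chain, measured 0.411, 0.146, 0.167 and 0.165 FPKM in control and 0.0900, 0.114, 0.0758 and 0.112 FPKM in dexamethasone mice, with no overlap (log2 difference -0.64, SE 0.26, limma adjusted p = 0.882), and without control mouse 1 the difference was -0.39. P4ha3, a collagen prolyl hydroxylase, had 0.220 FPKM against 0.134 FPKM and the metalloproteinase Mmp16 0.277 FPKM against 0.341 FPKM. Developmental signalling genes had lower means in 9 of 12 tested members (median -0.18), among them Sfrp4, a second Wnt inhibitor, at 0.172 FPKM against 0.248 FPKM, Grem1, an antagonist of bone morphogenetic proteins and the only tested fibroblast marker, at 0.117 FPKM against 0.162 FPKM, and Gdf11, at 0.630 FPKM against 0.645 FPKM. The stress genes Gdf15 and Hspa1l, the latter a heat shock protein, had 0.314 FPKM against 0.487 FPKM and 0.336 FPKM against 0.599 FPKM, and without control mouse 1 the log2 difference of Gdf15 turned from -0.30 to 0.06. Complement was represented by C3ar1 and Cfi, the inhibitor factor I, at 0.166 FPKM against 0.108 FPKM, and the metal and oxidative stress list by Slc30a2, a zinc transporter, at 0.184 FPKM against 0.197 FPKM.

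Blood cell and muscle markers were few. Gata1, a factor of erythroid cells, eosinophils and mast cells, had 0.284 FPKM against 0.161 FPKM, and Il5ra, the eosinophil interleukin 5 receptor, 0.208 FPKM against 0.223 FPKM. The median of 3 platelet and erythroid markers was 0.11. The muscle genes Kbtbd13 and Casq1 had log2 differences of -0.09 (SE 0.23) and 0.07 (SE 0.29).

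Large gene families, gathered by symbol, had medians between -0.13 and 0.23 where at least 5 members were tested, apart from the variable segments. The 24 solute carriers (median -0.02), 31 ion channels (-0.06), 39 olfactory, vomeronasal and taste receptors (0.01), 11 zinc finger proteins (0.07), 13 homeobox, forkhead and Sox factors (-0.13), 20 microRNA genes (0.06), 14 Tmem genes (-0.01) and 21 neurotransmitter and peptide receptors (-0.005) had medians close to 0.02, that of all genes. Without control mouse 1 the median was -0.19 for the olfactory group (9 higher and 30 lower), -0.16 for solute carriers (7 and 17), -0.17 for Tmem genes and -0.09 for zinc finger proteins, when that of all genes was -0.03. Among 13 orphan receptors (0.10), Gpr65, a proton sensor of leukocytes, had 1.15 FPKM against 0.830 FPKM and Gpr33 0.0875 FPKM against 0.239 FPKM. Cldn8, a tight junction claudin, measured 0.783, 0.847, 0.934 and 0.920 FPKM in control and 0.988, 1.06, 1.20 and 1.26 FPKM in dexamethasone mice, with no overlap and a log2 difference of 0.34 (SE 0.14, limma adjusted p = 0.882). Rxfp4, a relaxin family receptor, had 0.460 FPKM against 0.260 FPKM and Ttll13, a tubulin polyglutamylase, 0.784 FPKM against 0.532 FPKM, both without overlap. Tmem171 had 0.555 FPKM against 0.323 FPKM. The microRNA genes Mir219a-2 and Mir679 had log2 differences of 1.30 (SE 0.59) and -1.41 (SE 0.57), and for both the groups overlapped with zeros among the mice. In steps over both lanes, no control or dexamethasone mouse exceeded 1.69 for Mir219a-2 or 0.82 for Mir679. These differences therefore rest on hardly any fragments, and Mir219a-2 also overlaps Mir219b.

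**Figure D4:**
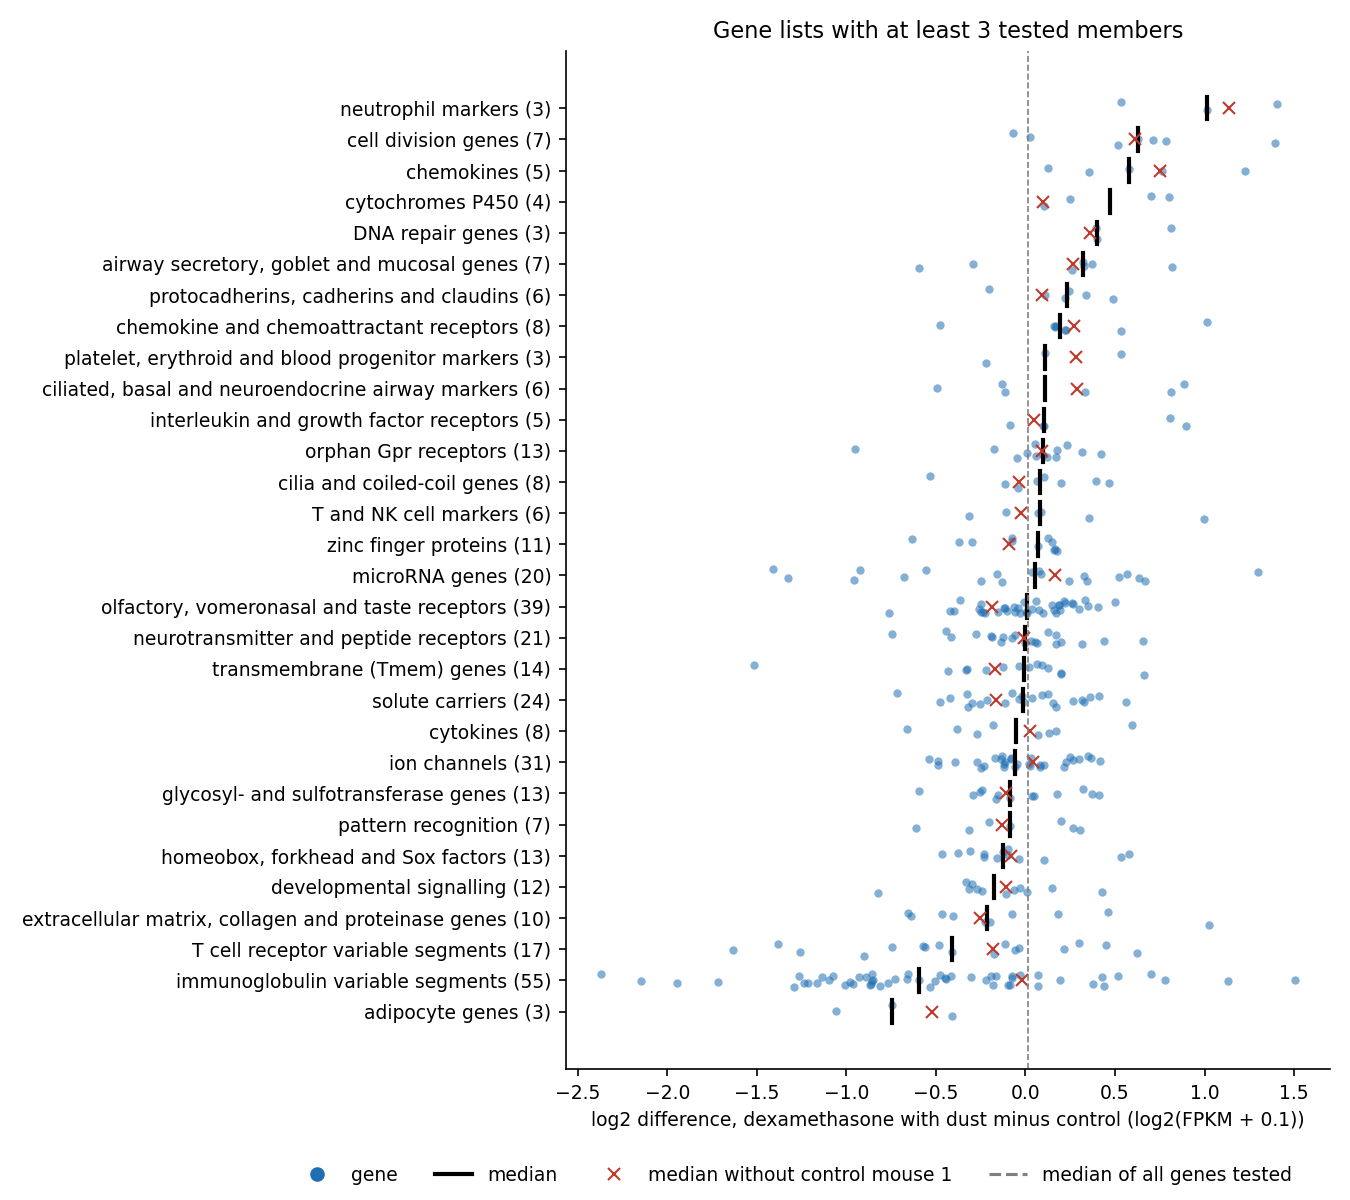
Each blue point is 1 gene's log2 difference between dexamethasone and control mice on log2(FPKM + 0.1), by gene list, with the number tested in brackets, the list's median as a black bar and the median without control mouse 1 as a red cross. The dashed line is the median of all genes tested, 0.02, and the median of immunoglobulin variable segments moves from -0.59 to -0.02 without control mouse 1.

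The single call was sensitive to the processing. Asprv1 kept a higher mean in all 24 alternatives that gave it a value and passed the threshold in 12 of them. Its adjusted p ranged from 0.00960 without dexamethasone mouse 4 to 0.992 when only the first lane was used, where its log2 difference was 1.07. It did not pass when only the 8 mice compared were fitted (limma adjusted p = 0.220), nor with median-of-ratios scaling (0.0564) or quantile normalisation (0.0989), nor after adjustment over genes and loci together (0.107). Leaving out control mouse 2, 3 or 4 or dexamethasone mouse 1, 2 or 3, each alone, also ended the call, with adjusted p between 0.0695 and 0.164. Saa1 passed with a pseudocount of 0.01 (0.0148), with array quality weights (0.0180) and without dexamethasone mouse 4. It passed in no other alternative. With only the 8 mice compared its limma adjusted p was 0.8435. With the most abundant transcript alone its log2 difference was 1.13 (limma adjusted p = 0.2413).

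**Figure D5:**
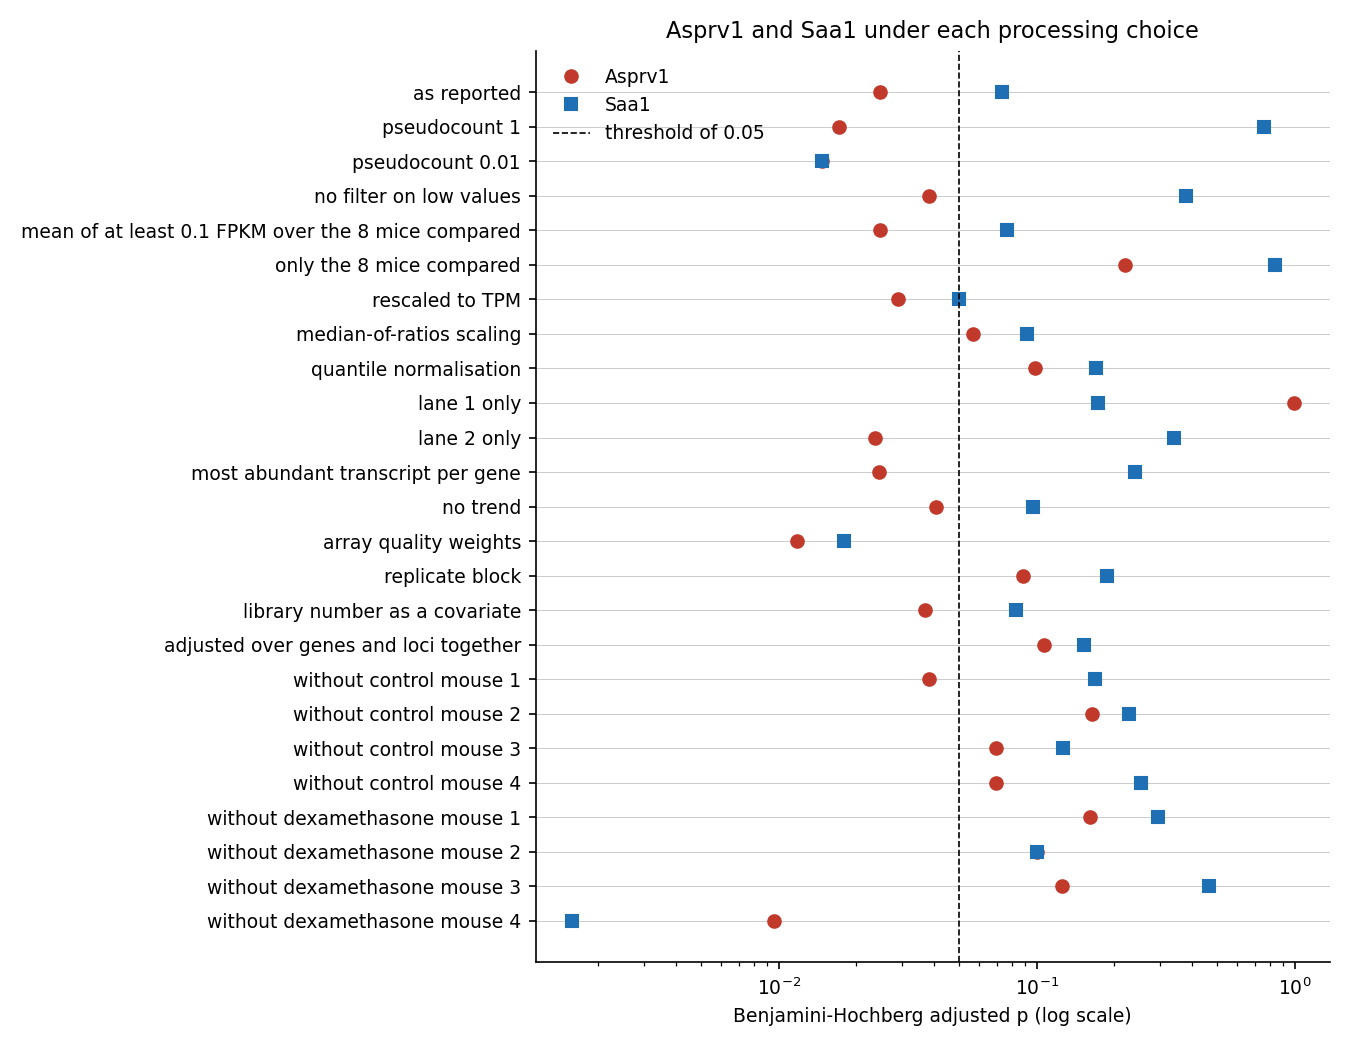
Benjamini-Hochberg adjusted p of Asprv1 and Saa1 from limma is shown on a log axis for the reported fit and for each alternative, with a dashed line at the threshold of 0.05. Asprv1 lies left of the line in the reported fit and in 12 of 24 alternatives, and Saa1 lies left of it in 3.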

How the data were processed

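Lung RNA was sequenced for 16 mice in 4 groups, each library in 2 lanes. The authors deposited FPKM per transcript, and the submitters' processing notes name FastQC, HISAT, HISAT2 2.2.1, SAMtools 1.12, StringTie 2.1.5, R 4.0.4 and the build mm10. The 32 single files equalled the deposited matrix. Lanes were averaged and transcripts summed per gene. Symbols and gene positions came from the GENCODE M21 annotation, which named 25510 of 26305 identifiers. Genes with a mean of at least 0.1 FPKM were tested on log2(FPKM + 0.1) with limma 3.58.1 (R 4.3.3), all 4 groups in 1 fit with a trended prior variance, and p-values were adjusted by Benjamini-Hochberg. Loci were tested likewise from 1 FPKM with a pseudocount of 1. Fold changes on this scale understate those of low genes. The filter took the mean over all 16 mice, so a gene low in 1 group could enter through the others, which favours differences near the filter. Saa1, Acod1, Cenpm, Il12rb1, Il23r and Itln1, among others, had control means under 0.1 FPKM. Marc1, Shd and Igkv4-59, among others, had dexamethasone means under 0.1 FPKM. Tables and figures used Python 3.11.15, pandas 2.3.3, numpy 2.4.6, scipy 1.17.1 and matplotlib 3.10.9. The limma fit was also run on simulated data with normally distributed noise. Such data lack the zeros and steps of the real values, so that run does not check the fit at low levels.

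Named genes are those past the threshold and those with the smallest unadjusted p, 30 in all, without predicted genes. From each curated list the 2 with the smallest p and the 2 with the highest mean were added, and from families gathered by symbol, fewer than the rule allows, the 2 with the smallest p. Gene lists, members and tests were chosen with earlier results of these data known. Nothing in the labels says how mice were housed or batched, so p-values measure the spread between these mice. Polq, Ttk and Troap fall outside the rule and were named after their values were seen. Some genes that the rule names are not reported here.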

Additional observations from a re-analysis of the deposited data

Results flagged for a closer look

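In 216 groups of 4 mice (108 named genes in control and dexamethasone mice), 12 held 1 mouse whose gap to the others was large against the range of its group. Chance gives about 1 in 20 groups. Control mouse 1 was that mouse in 6 cases. It was high for Cenpm at 0.283 FPKM (others up to 0.0308), Acod1 at 0.0489 FPKM (others at 0), Col6a6 at 0.411 FPKM (others up to 0.167), Ccl4 at 0.290 FPKM (others at 0), Cxcl2 at 0.340 FPKM (others up to 0.158) and Pomc at 0.353 FPKM (others up to 0.0498). Control mouse 3 was high for Txndc2 at 0.233 FPKM and low for Il2, listed at 0. Control mouse 4 was high for Slc14a1, a urea transporter, at 0.388 FPKM. Dexamethasone mouse 2 was high for Prr11 at 0.355 FPKM and Mir679 at 0.634 FPKM. Dexamethasone mouse 4 was high for Igkv4-59 at 0.163 FPKM.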

How the results depend on the processing

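The number of annotated genes called, 1 as reported, was 0 with only the 8 mice compared, with a filter of 0.5 FPKM, with median-of-ratios scaling, with quantile normalisation, with lane 1 alone and with adjustment over genes and loci together. It was 2 with a pseudocount of 0.01, with no filter, with lane 2 alone and with array quality weights, and 0 to 3 when 1 mouse was left out. With the replicate number as a block it was 0. The same numbers do not pair the mice by label, and same-numbered control and dexamethasone mice correlated at 0.737, 0.0685, 0.185 and 0.681 over loci and at 0.304, -0.0265, 0.0426 and 0.177 over annotated genes. Not every mouse correlated best with its own number. The number of loci called, 2 as reported, was 4 with a pseudocount of 0.1, with lane 1, with the replicate block and with library number as a covariate, 6 with quantile normalisation, and 2 to 9 when 1 mouse was left out. Of 2605 values of named genes under 25 alternatives, 2549 kept direction and side of the threshold, 12 lost the threshold and 5 gained it. The other 39, of 19 genes, changed sign, none of them among the 30 with the smallest p. With lane 1 alone the log2 difference became 0.00233 for Pacsin1, -0.108 for Il22ra1, 0.0593 for Kbtbd13 and 0.0628 for Gdf11. With lane 2 alone the log2 difference became -0.0941 for Cldn2, -0.0742 for Casq1 and -0.758 for Hist1h1t. With the most abundant transcript per gene the log2 difference became 0.0226 for Olfr267, 0.0391 for Pla2g3, 0.161 for Adora1, -2.091 for Ccno and -0.108 for Il20rb. With array quality weights the log2 difference became 0.0206 for Kbtbd13, -0.00669 for Icos, -0.0311 for Casq1 and -0.0156 for Fasl. With median-of-ratios scaling the log2 difference became -0.00678 for Hist1h1t. Leaving out 1 mouse at a time gave ranges of -0.293 to 0.00686 for Adora1, -0.0645 to 0.412 for Prox1, -0.741 to 0.0583 for Gdf15, -0.405 to 0.139 for Apol9a, -0.0246 to 0.241 for Il22ra1, -0.228 to 0.0925 for Kbtbd13 and -0.0863 to 0.215 for Il20rb. The ranges were -0.0164 to 0.161 for Icos, -0.258 to 0.0589 for Il5ra, -0.130 to 0.269 for Casq1, -0.0826 to 0.215 for Fasl, -0.137 to 0.0967 for Gdf11, -0.140 to 0.126 for Slc30a2 and -0.149 to 0.195 for Hist1h1t. The cause of these changes was not tested. Low FPKM, with few fragments per gene, limits what could be detected.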

Other observations

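Markers of mast cells, eosinophils and basophils below the filter were chosen for description after their values were seen. Of 15 such genes, 11 were above 0 in at least 1 control mouse and 3 in at least 1 dexamethasone mouse, and 4 were listed at 0 in all 8. Without control mouse 1 the first number was 7, since Fcer1a, Mcpt1, Prg2 and Mcpt8 were above 0 in no other control. The same count over all genes under the filter is not given here, so these numbers describe this list only. The 2 tested members of the list, 1 higher and 1 lower, had a median log2 difference of 0.22. Ccr3, the eotaxin receptor, was above 0 in all 4 dexamethasone mice (mean 0.0378 FPKM) and in 2 controls (mean of 4, 0.0124 FPKM). Tpsb2, a mast cell tryptase, was listed at 0.443, 0, 0.460 and 0.0961 FPKM in control mice and at 0 in all dexamethasone and dust-only mice. Mrgprb1, a receptor of mast cells, was listed at 0.0255, 0.0175, 0.0258 and 0.0373 FPKM in control mice and at 0 in the same 8 treated mice. With no filter on low values it was the second gene called by limma, beside Asprv1, and it was lower. All its control values lay under the pseudocount of 0.1, so this call concerns values near the floor. Among B and plasma cell markers, Fcrl5 was listed at 0.363, 0.0899, 0.104 and 0.0526 FPKM in control mice and at 0.0836 FPKM in dexamethasone mouse 4 alone of its group. Tnfrsf17, a survival receptor of plasma cells, was listed at 0.336 and 0.0455 FPKM in 2 control mice and at 0.0913 and 0.0676 FPKM in 2 dexamethasone mice. Apart from that setting, these genes were under the filter and were not tested.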
